A study of Mus musculus with 12 samples.

Results

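The response of the spleen to proteoglycan (PG) immunization was measured in BALB/cByJ mice, an inbred substrain of BALB/c, with the 6 BALB/cByJ arrays of a series of 12. All arrays came from female mice. The 3 immunized BALB/cByJ mice had received a single intraperitoneal injection of cartilage PG (100 µg protein, as the labels state it) together with 2 mg of the synthetic adjuvant dimethyldioctadecylammonium bromide (DDA), and their spleens were taken on day 12 after the injection. The 3 naïve BALB/cByJ mice were left untreated, so effects of the antigen and of the adjuvant cannot be told apart. The other 6 arrays held 3 naïve and 3 immunized mice of the BALB/cJ substrain, handled in the same way. RNA came from a piece of whole spleen, and each array stood for 1 mouse. The comparison asked which transcripts had changed after the first injection. All 45037 probe sets of the array other than its control probe sets were compared, as immunized minus naïve.

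The spleen filters blood and holds B and T cells in white pulp follicles, surrounded by a red pulp that in mice also makes red cells, platelets and granulocytes. After a protein antigen, B cells that receive help from T cells form germinal centres, where they divide, mutate their antibody genes and are selected, and some leave as plasma cells. Adjuvants act first on myeloid cells, which release chemokines and acute-phase proteins and call neutrophils from the marrow. PG, the major proteoglycan of cartilage, is the antigen of a mouse model of arthritis in BALB/c mice.

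Values are on a log2 scale, relative to the median of each probe set over the 12 arrays. They hold no absolute signal, so the identity of the tissue could not be checked by the level of its markers. Several arrays stood apart. Acinar enzymes of the pancreas, which lies against the spleen, were high in naïve replicate 1, where the median of 18 such genes was 1.94 against 0.25 and 0.13 in the other naïve arrays and from -0.06 to 0.03 in the immunized arrays. The pigment cell enzyme Dct was at 4.72 in immunized replicate 2 and between -0.54 and 0.08 in the other BALB/cByJ arrays. Adipoq, of the adipose list, was at 1.44 in naïve replicate 1 and at 0.62 in immunized replicate 1. In the other BALB/cByJ arrays no gene of that list was above 0.20. The median of 19 heat shock genes was 0.28 in immunized replicate 3 and at or below 0.01 in the other BALB/cByJ arrays. In the immunized BALB/cJ arrays it was 0.07, 0.28 and 0.48 (sample numbers 33, 49 and 50). For BALB/cByJ the sample numbers of the labels were 10 to 12 in naïve and 29, 31 and 48 in immunized arrays. Immunization therefore cannot be told apart from what this numbering stands for. The SD of the values over all probe sets ranged from 0.130 in immunized replicate 1 to 0.265 in naïve replicate 1.

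Between immunized and naïve BALB/cByJ spleens 23 probe sets differed, of which 22 were higher and 1 was lower in immunized mice. The higher probe sets named 20 genes, and 7 of these were genes of germinal centre B cells. Those with the greatest increases were Rgs13, a regulator of G protein signalling in germinal centre B cells, at 3.07 on the log2 scale (8.38-fold), and Saa3, an acute-phase apolipoprotein, at 2.77 (6.81-fold). The only lower probe set detected pancreatic amylase. The test was limma with Benjamini-Hochberg adjustment over all probe sets and a threshold of 0.05 on the adjusted p, and the 23 passing it (termed called below) were 0.0511% of all probe sets (0.0488% for the higher ones). For each of the 23, all naïve arrays lay on one side of all immunized arrays, against 6.91% of all probe sets that separated in this way upward and 5.20% downward. The 23 were chosen by their p between these arrays, so nothing is read from this separation. Of the called probe sets, 11 were over 2-fold higher and 1 was over 2-fold lower. At an adjusted p under 0.1 there were 34, of which 30 were higher and 4 were lower. The number of called probe sets moved when single arrays were left out. It was 14, 6 and 7 without naïve replicate 1, 2 and 3, and 35, 21 and 8 without immunized replicate 1, 2 and 3. The probe sets over 2-fold were 29 without immunized replicate 1, 5 without naïve replicate 2, 6 without naïve replicate 3 and 5 without immunized replicate 3. Fitted alone, the 6 BALB/cByJ arrays gave 6 calls.

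**Figure D1:**
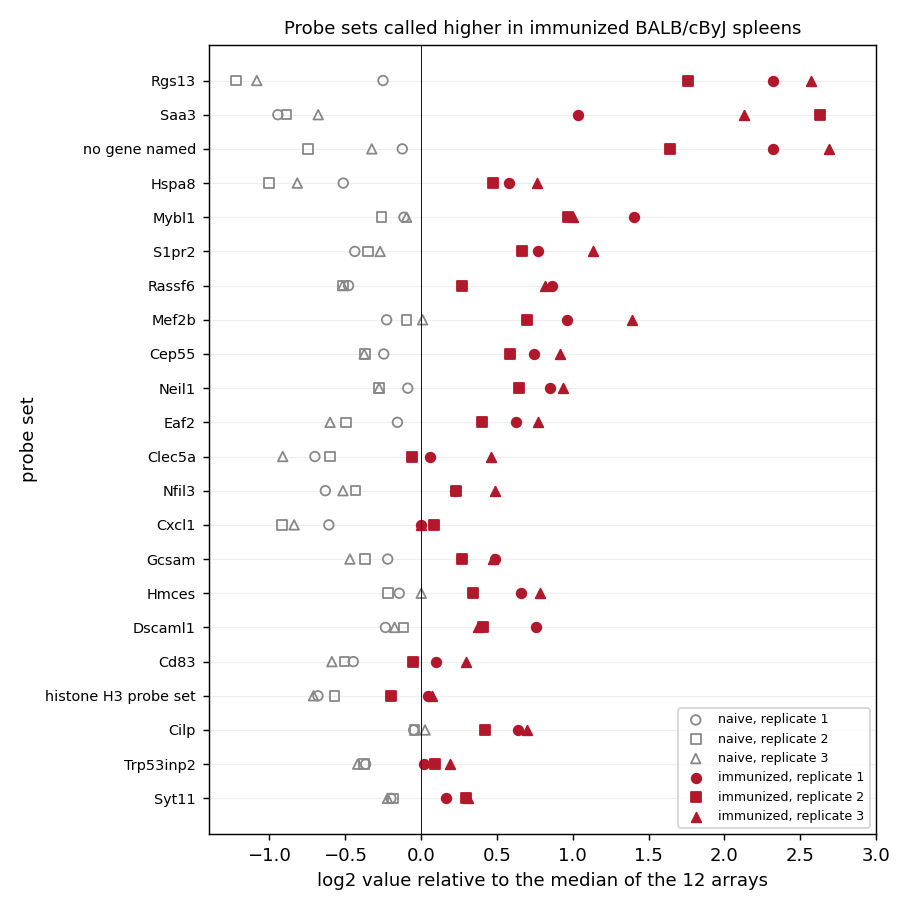
The 22 probe sets called higher after immunization, as log2 values relative to the median of the 12 arrays, with 1 symbol per array (open grey, naïve BALB/cByJ, n = 3; filled red, immunized BALB/cByJ, n = 3). In every row the 3 immunized arrays lie to the right of the 3 naïve arrays, with the widest gaps for Rgs13, Saa3 and the probe set with no gene named.

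Genes of germinal centre B cells were the group with the most calls. Of 19 listed genes 15 were measured, and 7 of them had a called probe set, all higher, while 0.110% of all genes had one. With the probe sets of each gene averaged, 12 of the 15 were higher at an unadjusted p under 0.05 from limma and none was lower, against 5.73% of all 18193 genes higher and 2.53% lower. All 15 differences were above 0, with a median of 0.40 against 0.01 over all genes. The median of the list was -0.15, -0.22 and -0.31 in the naïve arrays and 0.29, 0.07 and 0.26 in the immunized arrays. In whole spleen, more cells of a type and more RNA per cell cannot be told apart. The list was drawn up with earlier results of these arrays known, and its calls were 3 genes without naïve replicate 2, 3 without naïve replicate 3 and between 5 and 7 without any other array.

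Rgs13 stood at -0.25, -1.22 and -1.08 in the naïve arrays and at 2.32, 1.76 and 2.57 in the immunized arrays (difference 3.07, SE 0.316, adjusted p = 0.00266). Naïve replicate 1 was the highest of its group and still far below every immunized array. S1pr2, the sphingosine-1-phosphate receptor that keeps B cells within the germinal centre, was at -0.44, -0.35 and -0.27 in naïve and at 0.77, 0.66 and 1.14 in immunized mice (difference 1.21, SE 0.108, adjusted p = 0.00157). Its second probe set differed by 0.40 (adjusted p = 0.351). Mef2b, a transcription factor that acts upstream of Bcl6, was at -0.23, -0.09 and 0.01 in naïve and at 0.96, 0.70 and 1.39 in immunized mice (difference 1.12, SE 0.140, adjusted p = 0.0129). In these genes immunized replicate 2 was the lowest of its group.

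Mybl1, a Myb family transcription factor of dividing germinal centre B cells, was at -0.11, -0.26 and -0.10 in naïve and at 1.41, 0.97 and 1.00 in immunized mice (difference 1.28, SE 0.153, adjusted p = 0.0116), and its second probe set differed by 0.66 (adjusted p = 0.177). The signalling adaptor Gcsam, named for the germinal centre, rose by 0.76 (SE 0.0928, adjusted p = 0.0116), and its second probe set differed by 0.96 (adjusted p = 0.0564). A pair of called members handle damaged DNA. Neil1, a glycosylase that starts the repair of oxidized bases, was at -0.09, -0.28 and -0.28 in naïve and at 0.85, 0.65 and 0.94 in immunized mice (difference 1.03, SE 0.0975, adjusted p = 0.00160). Hmces, a protein that binds abasic sites in single-stranded DNA, rose by 0.71 (SE 0.107, adjusted p = 0.0490). Bcl6, the transcriptional repressor on which germinal centres depend, was at -0.36, -0.28 and -0.31 in naïve and at 0.16, -0.02 and 0.13 in immunized mice, and its difference of 0.40 was not called (adjusted p = 0.161). The death receptor Fas, a surface marker of germinal centre B cells, differed by 0.38 (adjusted p = 0.172) and was not called.

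**Figure D2:**
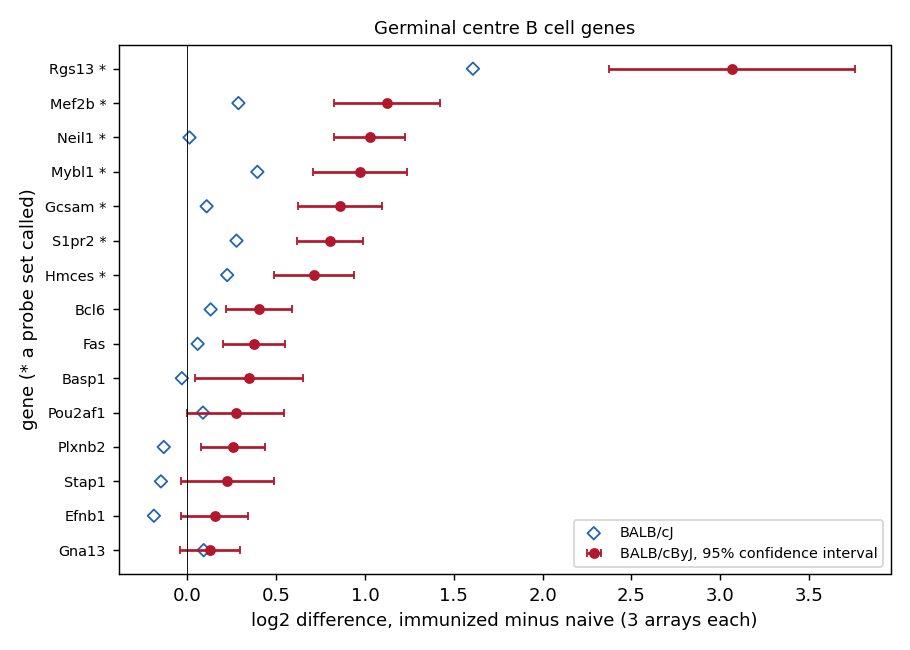
The log2 difference, immunized minus naïve, of the 15 measured germinal centre B cell genes in BALB/cByJ (red circles, bars are 95% confidence intervals from limma, 3 arrays per group) and in BALB/cJ (open blue diamonds); an asterisk marks a gene with a called probe set in BALB/cByJ. All 15 red points lie above 0, and each lies to the right of its BALB/cJ point.

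Promoters of 16 of the 20 called genes were found among the RefSeq promoter windows (mouse build GRCm38.p6), and the 250 bases before the transcription start of 2 germinal centre genes are shown because they hold a short motif named for B cell factors. The octamer ATTTGCAT, read on both strands, was found in 1 of the 16 genes (Mef2b, 85 bases before the start) and in 1.6% of all 32851 windows. The NF-κB consensus was found in 2 of the 16 genes (Rgs13, 165 bases before the start, and Cxcl1) and in 3.9% of all windows. The motifs were chosen after the called genes were seen, and a match is a description of the sequence and not a site. Rgs13 is read from the minus strand (chr1:144177373-144177622) with the NF-κB consensus in capitals, and Mef2b from the plus strand (chr8:70152511-70152760) with the octamer, which lies there in the opposite orientation, in capitals.
Rgs13: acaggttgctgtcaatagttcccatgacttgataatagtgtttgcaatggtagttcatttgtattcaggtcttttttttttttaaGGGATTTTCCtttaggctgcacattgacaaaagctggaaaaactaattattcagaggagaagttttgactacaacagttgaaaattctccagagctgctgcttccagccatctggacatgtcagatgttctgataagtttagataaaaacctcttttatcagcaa
Mef2b: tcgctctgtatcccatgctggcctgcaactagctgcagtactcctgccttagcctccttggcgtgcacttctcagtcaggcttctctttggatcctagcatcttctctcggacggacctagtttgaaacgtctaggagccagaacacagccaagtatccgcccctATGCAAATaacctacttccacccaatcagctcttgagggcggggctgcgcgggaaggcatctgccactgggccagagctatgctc

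Plasma cell genes gave a single call. It was Eaf2, 1 of 20 measured genes, a partner of the ELL elongation factors that is abundant in germinal centre and antibody-secreting cells. Eaf2 was at -0.16, -0.50 and -0.60 in naïve and at 0.63, 0.41 and 0.77 in immunized mice (difference 1.02, SE 0.153, adjusted p = 0.0490). Of the 20 genes, 10 were higher at an unadjusted p under 0.05 and none was lower, and the median difference was 0.31. Over all genes the shares were 5.73% higher and 2.53% lower, and 0.110% had a probe set called higher. Edem1, which sends misfolded glycoproteins for degradation, and Mzb1, a chaperone of antibody secretion, differed by 0.42 each and were not called (adjusted p = 0.185 and 0.193). The endoplasmic reticulum stress list, which holds the chaperones of secretory cells, had no called gene, with 11 of 22 genes higher at an unadjusted p under 0.05, none lower and a median of 0.20. That number was 5 without immunized replicate 3, 7 without naïve replicate 3 and 7 without immunized replicate 1. The disulphide isomerase Pdia6 had the smallest p of the list (0.26, adjusted p = 0.305), followed by Sdf2l1 (0.24) and Creld2 (0.36). Of the antibody constant region genes, 3 were measured and none was called. The difference was 0.44 for Ighg3 (adjusted p = 0.363), 0.70 for Ighm (adjusted p = 0.484) and 0.73 for Igha (adjusted p = 0.621).

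No T cell gene was called. In the list of T cell activation and follicular helper genes, 3 of 15 were higher at an unadjusted p under 0.05 and none was lower. Over all genes, 5.73% were higher and 2.53% lower at that p. The inhibitory receptors Ctla4 and Pdcd1 differed by 0.52 (adjusted p = 0.261) and 0.84 (adjusted p = 0.331). Pdcd1 was at -0.63, -0.10 and 0.10 in naïve and at 0.37, 0.25 and 1.27 in immunized mice, where replicate 3 lay far above the others. Ascl2, a transcription factor of follicular helper cells, differed by 0.18 (adjusted p = 0.521). The genes of cytokines that were also followed as proteins were listed separately. Among these 6, limma called none, and an unadjusted p under 0.05 was found for 1. Il1b, the gene of the proinflammatory interleukin-1β, was at -0.38, -0.43 and -0.52 in naïve and at -0.05, -0.08 and 0.30 in immunized mice (difference 0.50, SE 0.146, adjusted p = 0.337). The differences (with 95% confidence intervals) were 0.24 (-0.05 to 0.54) for Il4, 0.19 (-0.03 to 0.41) for Il6, -0.11 (-0.50 to 0.28) for Ifng, 0.02 (-0.14 to 0.19) for Tnf and -0.04 (-0.36 to 0.27) for Il2.

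Myeloid and acute-phase genes formed the other group of calls. In the acute-phase and myeloid activation list, 2 of 18 measured genes were called, 8 were higher at an unadjusted p under 0.05 and none was lower, with a median of 0.20. Over all genes, 0.110% were called higher and 5.73% were higher at that p. Saa3 was at -0.94, -0.89 and -0.68 in naïve and at 1.04, 2.63 and 2.13 in immunized mice (difference 2.77, SE 0.419, adjusted p = 0.0490). Clec5a, an activating lectin receptor of myeloid cells, was at -0.70, -0.60 and -0.91 in naïve and at 0.06, -0.06 and 0.46 in immunized mice (difference 0.89, SE 0.129, adjusted p = 0.0416). Immunized replicate 1 held the lowest value of Saa3 in its group and immunized replicate 2 the lowest of Clec5a. Clec4e, a lectin receptor that senses mycobacterial glycolipids, differed by 0.96 as the mean of its probe sets (adjusted p = 0.0970) and was not called.

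Of 24 chemokine genes, 1 was called and 4 were higher at an unadjusted p under 0.05, against 0.110% and 5.73% of all genes. Cxcl1, which attracts neutrophils, was at -0.61, -0.92 and -0.84 in naïve and at 0.00, 0.09 and 0.00 in immunized mice (difference 0.82, SE 0.117, adjusted p = 0.0416). Its other probe sets, at -0.13 and 0.09, did not move with it, so the gene is uncertain. Ccl8, a monocyte chemokine, was at -0.37, -0.99 and -1.0 in naïve and at 1.06, 1.62 and 1.27 in immunized mice. Its difference of 2.10 (SE 0.488) did not pass the test with all 12 arrays (adjusted p = 0.193). Ccl22, a chemokine of mature dendritic cells, differed by 0.52 (adjusted p = 0.0970). Cd83, a marker of mature dendritic cells that activated B cells also carry, was the called gene among 15 dendritic cell genes. It was at -0.45, -0.50 and -0.59 in naïve and at 0.10, -0.06 and 0.30 in immunized mice (difference 0.63, SE 0.0965, adjusted p = 0.0490). Of the 15, 9 lay above 0 and 6 below, with a median of 0.05. At an unadjusted p under 0.05 from limma 3 were higher and none was lower. The array medians of the list overlapped, at -0.06, -0.05 and -0.28 in naïve and at 0.01, -0.04 and -0.06 in immunized mice.

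The promoters of Saa3 and Cxcl1 are shown for the motifs of the factors best known at acute-phase genes. The C/EBP motif TTGCNNAAT, read on both strands, was found in 1 of the 16 called genes with a promoter window and in 2.11% of all windows. Saa3 (minus strand, chr7:46715677-46715926) holds it 100 bases before the start, in the opposite orientation, and Cxcl1 (plus strand, chr5:90890995-90891244) holds the NF-κB consensus in overlapping matches that begin 71 and 70 bases before the start. The matches are in capitals.
Saa3: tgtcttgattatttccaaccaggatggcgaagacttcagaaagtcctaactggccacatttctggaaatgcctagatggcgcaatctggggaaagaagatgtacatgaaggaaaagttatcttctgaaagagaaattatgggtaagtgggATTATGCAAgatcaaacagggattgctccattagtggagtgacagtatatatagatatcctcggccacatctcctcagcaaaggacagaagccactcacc
Cxcl1: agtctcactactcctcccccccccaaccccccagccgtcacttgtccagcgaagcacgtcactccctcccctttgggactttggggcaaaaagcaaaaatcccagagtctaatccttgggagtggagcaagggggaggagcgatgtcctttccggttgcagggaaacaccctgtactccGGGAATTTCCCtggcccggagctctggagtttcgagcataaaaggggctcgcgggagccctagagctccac

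The median of genes of neutrophils and their precursors was higher in each immunized array than in each naïve array, by amounts that differed widely between mice. None of 18 measured genes was called by limma, although 16 were higher at an unadjusted p under 0.05, none was lower and 16 did not overlap between the groups. Among all 18193 genes, 5.73% were higher at that p and 1488 lay higher without overlap. In the list, the chemokine receptor Cxcr2 and the histone deiminase Padi4 did overlap, with differences of 0.07 (adjusted p = 0.945) and 0.42 (adjusted p = 0.550). The median difference was 1.53. Across the list the median was -0.66, -0.99 and -0.96 in the naïve arrays and -0.12, 0.53 and 1.17 in the immunized arrays. Mpo, the myeloperoxidase of primary granules, was at -0.88, -1.39 and -1.45 in naïve and at -0.13, 0.54 and 1.29 in immunized mice (difference 1.81, SE 0.319, adjusted p = 0.0970). The antimicrobial peptide Camp and the chitinase-like Chil3 differed by 1.81 and 1.64 (adjusted p = 0.0970 for both). These adjusted p were from limma on 1 value per gene, over 18193 genes. By probe set they were 0.104 for Mpo, 0.109 for Camp and 0.128 for Chil3. Cd177, a neutrophil surface protein, held the highest value of the list, 1.53 in immunized replicate 3. When immunized replicate 1 was left out, 10 of the 18 genes had a called probe set. With the mean of this list, which separated the groups, as a covariate, limma called none of the 45037 probe sets (921 higher and 997 lower at an unadjusted p under 0.05). In that fit the differences of the 23 called probe sets kept their direction, and they were 2.37 for Rgs13, 0.91 for Cep55, 0.87 for Neil1 and 0.84 for Mef2b. The increases of Saa3, Clec5a and Clec4e ran beside this shift, and its part in them was not tested.

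Genes of dividing and of red cells lay mostly below 0. Cep55, a protein of the midbody needed for the last step of cytokinesis, had the smallest p of all probe sets and was at -0.25, -0.37 and -0.37 in naïve and at 0.75, 0.59 and 0.92 in immunized mice (difference 1.08, SE 0.0926, adjusted p = 0.00157). Its second probe set differed by 0.75 (adjusted p = 0.190). It was the called gene among 25 mitosis genes, of which 21 lay below 0 with a median of -0.13. Of all 18193 genes, 0.110% had a probe set called higher and 8556 lay below 0, with a median of 0.01. The centromere proteins Cenpa and Cenpe lay lower at an unadjusted p under 0.05, at -0.26 (adjusted p = 0.483) and -0.53 (adjusted p = 0.542). Over all genes 2.53% were lower at that p. Of 23 erythroid genes, 22 lay below 0, with a median of -0.22, and none was called. Naïve replicate 3 was the highest and immunized replicate 1 the lowest of the 6 arrays in the medians of both lists.

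The remaining called genes came from several classes. Hspa8, the constitutive Hsc70 chaperone, was at -0.51, -1.0 and -0.82 in naïve and at 0.58, 0.47 and 0.77 in immunized mice by 1 probe set (difference 1.38, SE 0.135, adjusted p = 0.00180). Its 3 other probe sets differed by 0.10 to 0.28, so the change of the gene as a whole is uncertain. Cilp, a matrix protein of the intermediate layer of cartilage, was at -0.05, -0.04 and 0.03 in naïve and at 0.64, 0.42 and 0.70 in immunized mice (difference 0.61, SE 0.0828, adjusted p = 0.0271). Among 17 cartilage matrix genes it was the called one, against 0.110% of all genes with a probe set called higher. The list had 11 genes above 0 and 6 below, with a median of 0.02. Prg4, the lubricant proteoglycan of joints, differed by 1.17 (adjusted p = 0.193) and was not called.

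Rassf6, a Ras-association domain protein, was at -0.48, -0.51 and -0.52 in naïve and at 0.87, 0.27 and 0.82 in immunized mice (fold 2.23, adjusted p = 0.0116). The vesicle protein Syt11 rose by 0.46 (adjusted p = 0.0490) by 1 of several probe sets, and the others differed by 0.15 to 0.54. The autophagy protein Trp53inp2 rose by 0.49 (adjusted p = 0.0490). Its other probe set differed by 0.10 (adjusted p = 0.801), so the gene is uncertain. For the adhesion molecule Dscaml1 1 probe set rose by 0.69 (adjusted p = 0.0490), but the other 4 were at -0.14, -0.09, 0.08 and 0.04, so the gene is uncertain. A probe set to which the annotation gives no gene was at -0.12, -0.74 and -0.32 in naïve and at 2.32, 1.64 and 2.69 in immunized mice (difference 2.61, SE 0.242, adjusted p = 0.00157). A probe set shared by several histone H3 genes rose by 0.63 (adjusted p = 0.0490). The amylase probe set, shared by Amy2a1 to Amy2a5, was at 8.06, 4.66 and 3.29 in naïve and at 0.23, -0.05 and -0.22 in immunized mice (difference -5.35, SE 0.813, adjusted p = 0.0490). Under the 21 alternatives that measured it the difference was from -6.38 to -3.89, and the probe set was called in 7 of them. Of 18 other pancreatic genes, 9 were lower at an unadjusted p under 0.05 and none was higher, against 2.53% and 5.73% of all genes. The highest, carboxypeptidase Cpb1, was at 4.25, 1.46 and 0.69 in naïve and at -0.30, 0.07 and 0.25 in immunized mice.

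**Figure D3:**
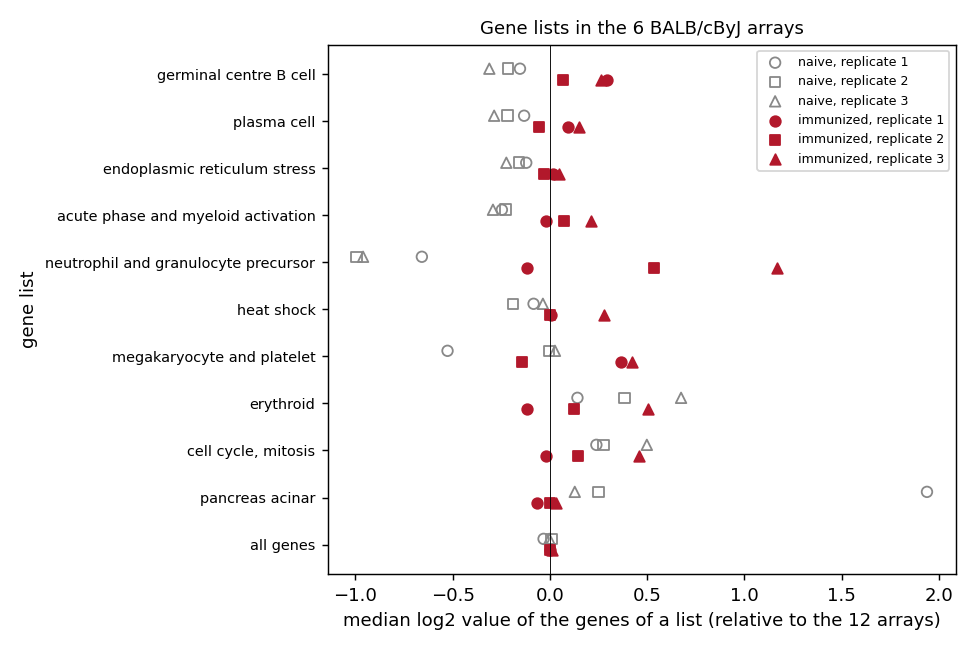
Median log2 value of the genes of 10 lists and of all genes in each of the 6 BALB/cByJ arrays (open grey, naïve; filled red, immunized; 1 symbol per replicate). The germinal centre, plasma cell, endoplasmic reticulum stress, acute-phase, neutrophil and heat shock medians lie higher in all immunized arrays than in all naïve arrays. The pancreas median lies lower in all immunized arrays and is at 1.94 in naïve replicate 1. The platelet, erythroid and mitosis medians overlap between the groups.

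Nfil3, a transcriptional repressor of lymphoid development that also acts on the circadian clock, was at -0.63, -0.43 and -0.51 in naïve and at 0.22, 0.23 and 0.49 in immunized mice (difference 0.84, SE 0.112, adjusted p = 0.0228). Genes of the circadian clock were looked at after these values were seen and are therefore given without a test. Of 15 such genes, 10 lay below 0 and 5 above, with a median of -0.23, and some differed little, such as the repressor Cry1 at -0.01 and Bhlhe41 at -0.08. Dbp, a clock output factor that binds the same DNA element as Nfil3, was at 1.06, 1.04 and 0.76 in the naïve BALB/cByJ arrays. It was at -0.80 and -0.96 in immunized replicates 1 and 2 (sample numbers 29 and 31) and at 0.41 in immunized replicate 3 (sample number 48). In BALB/cJ it was between -0.61 and -0.41 in the naïve arrays, at -0.79 in immunized replicate 1 (sample number 33) and at 0.85 and 0.96 in immunized replicates 2 and 3 (sample numbers 49 and 50). The clock repressor Nr1d1 differed by -0.99 and the clock genes Per3 and Hlf by -0.60 and -0.83, while Npas2 and Arntl, the activators of the clock, differed by 0.32 and 0.21. With the mean of 7 clock genes as a covariate, an alternative chosen after seeing the data, 13 probe sets were called, 9 of them among the 23. These included Rgs13 (3.85), Neil1 (1.24), Cep55 (1.19), S1pr2 (1.34), Mef2b (1.45) and Mybl1 (1.58), whereas Nfil3 (0.78, adjusted p = 0.242), Saa3 (1.84, adjusted p = 0.422) and Cxcl1 (0.63, adjusted p = 0.374) were not called.

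**Figure D4:**
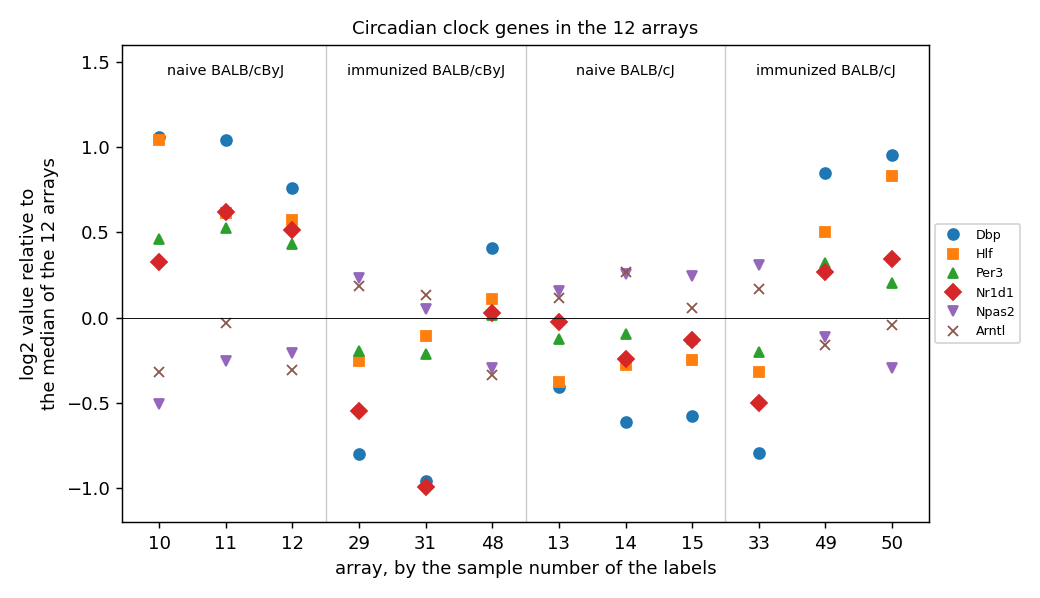
Log2 values of 6 circadian clock genes in the 12 arrays, placed by group and by the sample number of the labels. Dbp is between 0.76 and 1.06 in naïve BALB/cByJ, at -0.80 and -0.96 in arrays 29 and 31 and at 0.41 in array 48, and Npas2 and Arntl lie on the opposite side.

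The same 22 probe sets were compared between the colonies. The main limma fit called no probe set for BALB/cJ. An unadjusted p under 0.05 was found there for 4137, against 3738 for BALB/cByJ. The lack of BALB/cJ calls depended on the fit. Array weights gave 651 of them, beside 18 for BALB/cByJ, and the clock gene covariate gave 5, beside 13. The other alternatives that tested BALB/cJ called none for it. Of the 22 differences, 20 were above 0 in BALB/cJ and 8 had an unadjusted p under 0.05. The median of the 22 was 0.14 in BALB/cJ and 0.95 in BALB/cByJ. All 22 differences were greater in BALB/cByJ, and 20 of the tests of the difference of the responses had an unadjusted p under 0.05, but none of the 45037 probe sets passed after adjustment (3417 at an unadjusted p under 0.05). The smallest adjusted p was 0.198, for Neil1 (1.03 in BALB/cByJ and 0.01 in BALB/cJ) and for Cep55 (1.08 and 0.14). Rgs13 was 3.07 in BALB/cByJ and 1.61 in BALB/cJ (adjusted p of the difference 0.517), and Saa3 was 2.77 and 2.15 (adjusted p 0.851). The 22 were chosen for their size in BALB/cByJ, so a smaller value in BALB/cJ is not independent of the choice.

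The arrays of the colonies were also compared within each state. In 14 of the 22 probe sets the 3 naïve BALB/cByJ arrays all lay below the 3 naïve BALB/cJ arrays, against 11.9% of all probe sets, and in 15 the immunized BALB/cByJ arrays all lay above the immunized BALB/cJ arrays, against 8.14%. The 22 were chosen on the same BALB/cByJ arrays, which favours low naïve and high immunized values, so these counts are a description and nothing is read from the shares. Both held for 8 of them, Cep55, S1pr2, Neil1, Gcsam, Rassf6, Nfil3, Dscaml1 and Syt11. Rgs13, Mybl1, Mef2b, Hmces, Eaf2, Cilp and the probe set with no gene named lay apart from BALB/cJ in this way only after immunization, and Hspa8, Cxcl1, Clec5a, Cd83, Trp53inp2 and the histone H3 probe set only in naïve mice. Saa3 lay apart in neither state. The clock gene values given above differ between the naïve colonies in the same arrays, and their part in these differences was not tested.

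**Figure D5:**
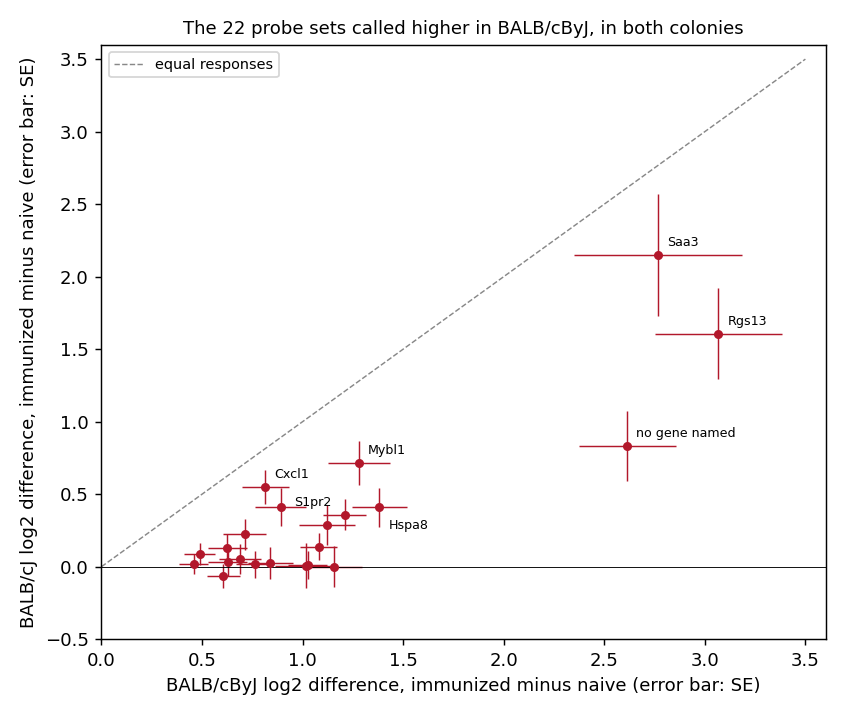
The log2 difference, immunized minus naïve, of the 22 probe sets called higher in BALB/cByJ (horizontal axis) and the same probe sets in BALB/cJ (vertical axis); bars are SE from limma (3 arrays per group) and the dashed line marks equal responses. All 22 points lie below the line, with Saa3 at 2.77 and 2.15 and Rgs13 at 3.07 and 1.61.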

How the data were processed

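Spleen RNA of 12 female mice, 1 per array, was hybridized to Affymetrix mouse whole-genome arrays. The deposited log2 values came from robust multi-array averaging (RMA) with quantile normalization, and the authors then subtracted the median of each probe set over the 12 arrays. The version of RMA and the base of the logarithm are not given in the sources used here, and base 2 was assumed as is usual for RMA. No signal level is left, so dim probe sets could not be filtered, and the number of arrays limits the precision. Of 45101 probe sets, 64 controls were left out.

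Groups came from the labels. Group means were fitted over all 12 arrays with limma 3.58.1 in R 4.3.3 (eBayes without trend). Genes were named from the platform annotation (34945 probe sets with 1 gene, 932 with several, 9160 with none). For a value per gene, the probe sets naming only that gene were averaged. List genes without a call carry the adjusted p of a separate limma fit to these values, over 18193 genes. Members and the 35 gene lists were chosen with earlier results of these data known. Named are the called genes, called list members (or the 3 with the smallest p), the 6 cytokine genes and the highest member of the pancreas, pigment, adipose, erythroid and neutrophil lists; Bcl6, Fas, Edem1, Mzb1, Clec4e, Ccl8, Ccl22, Prg4, Cenpa, Cenpe, Cxcr2, Padi4 and the clock genes were picked with their values in view. Alternatives were analysis of variance with the Student-Newman-Keuls comparison, as in the methods of the study, other normalizations, weights, covariates and arrays left out. The code was tested on simulated data. Plots used matplotlib 3.10.9.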

Additional observations from a re-analysis of the deposited data

How the results depend on the processing

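All 23 called differences kept their direction under the alternatives in which they were measured. Cep55 was called in 21 of 22, and S1pr2, Neil1 and Rgs13 in 20. Calls of the acute-phase list held less often, with Saa3 in 5 of 21 and Clec5a in 6 of 22. Of 22 alternatives, Eaf2 was called in 7, Hmces in 6, and Cd83 and Dscaml1 in 3. Trp53inp2 was called in 2 of 22 and Syt11 in 2 of 21. The number called was 6 with the BALB/cByJ arrays alone and 6 when tested against a fold of 1.2 (6 over 2-fold in both, with 2 and 3 germinal centre genes). It was 13 after subtraction of each array median, 14 when the mean of the erythroid genes entered as a covariate, and 15 with 1 value per gene (6 over 2-fold). With the neutrophil list mean as a covariate it was 0, so that 0 called ones were over 2-fold and 0 were germinal centre genes, although Rgs13 still differed by 2.37 and Cep55 by 0.91. With the run of sample numbers as a covariate 32 were called, 22 higher and 10 lower, and 15 of them were among the 23. Of these 32, 20 were over 2-fold, and the difference of the responses gave 6 calls. That difference gave 2 calls after quantile normalization and 3 without naïve replicate 1 and immunized replicate 2. Array weights gave 18 calls, 17 of them among the 23, while 651 probe sets were called for BALB/cJ. Analysis of variance with the Student-Newman-Keuls comparison gave 27 calls, 7 of them shared, with 4 over 2-fold and 2 germinal centre genes. Leaving out single arrays gave 6 to 35 calls, 5 to 29 over 2-fold, 0 to 2 for the difference of the responses and 3 to 7 germinal centre genes. Both of the following alternatives were chosen after seeing the data. The clock gene mean as a covariate gave 13 calls, and leaving out naïve replicate 1 with immunized replicate 3 gave 9, with 4 germinal centre genes. With replicate number as a block 12 were called, all among the 23. Deviations from the group mean correlated at 0.22, -0.13 and 0.37 between same-numbered arrays. Differently numbered arrays were not compared, so whether the numbers pair the mice cannot be told. The causes were not tested.

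The genes whose sign turned were not called. Ifng was 0.084 with array weights, 0.041 with the clock covariate, 0.11 without naïve replicate 1 and immunized replicate 3, and from -0.28 to 0.051 without single arrays. Adipoq was 0.19 with the run covariate, 0.081 and 0.59 without naïve replicate 1 and immunized replicate 2 or 3, and from -1.37 to 0.0037 without single arrays. Tnf was -0.013 with the run covariate and from -0.036 to 0.084 without single arrays, and Il2 from -0.18 to 0.12. Dct was -0.10 without naïve replicate 1 and immunized replicate 2, and -2.81 with the clock covariate. With the neutrophil covariate Adipoq was 0.85, Cd177 -0.082, Ctla4 -0.0070, Il2 0.22, Il4 -0.085, Il6 -0.13 and Tnf -0.12.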

Other observations

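Several other gene groups, none of them with a called member, were measured in the same arrays. Their counts stand beside 5.73% of all 18193 genes higher and 2.53% lower at an unadjusted p under 0.05 from limma. Of 23 immediate early genes, 7 were higher at an unadjusted p under 0.05 from limma and none was lower. Fos, a subunit of the AP-1 transcription factor, was at -0.65, -1.11 and -0.88 in naïve and at -0.01, -0.01 and 0.45 in immunized mice, a difference of 1.02 (adjusted p = 0.121). Atf3 and Ier2 differed by 0.38 (adjusted p = 0.193) and 0.25 (adjusted p = 0.239). The platelet list lay above 0 in all 15 genes with a median of 0.37, and 3 were higher at an unadjusted p under 0.05, among them the collagen receptor Gp6 (0.45, adjusted p = 0.551). Its array medians overlapped between the groups, at -0.53, -0.01 and 0.03 in naïve and at 0.36, -0.14 and 0.42 in immunized mice.

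In the stromal list 5 of 20 genes were higher at an unadjusted p under 0.05 and none was lower. The collagen chain Col1a1 differed by 0.49 (adjusted p = 0.434) and Madcam1, the addressin of the marginal sinus, by 0.63 (adjusted p = 0.550). Among 20 genes of lipid and sterol synthesis 5 were higher and none was lower, among them Fdps (0.26) and Cyp51 (0.34) of the cholesterol pathway. Among 16 natural killer and cytotoxic genes none was higher and 4 were lower at an unadjusted p under 0.05. The granzyme Gzma differed by -0.57 (adjusted p = 0.483) and the activating receptor Ncr1 by -0.39 (adjusted p = 0.544). In the T cell list 3 of 17 genes were higher and none was lower, among them Cd3g, a chain of the T cell receptor complex, at 0.28 (adjusted p = 0.434). Foxp3, the factor of regulatory T cells, was at 0.00, 0.00 and -0.01 in naïve and at 0.11, 0.23 and 0.27 in immunized mice (difference 0.20, adjusted p = 0.476). Of 19 B cell genes, 12 lay above 0 and 7 below, with a median of 0.08. At an unadjusted p under 0.05 from limma 3 of them were higher and 1 was lower. Among the 19, the B cell identity factor Ebf1 was at 0.15, 0.09 and 0.07 in naïve mice. It was at -0.15, -0.27 and -0.19 in immunized mice (difference -0.31, adjusted p = 0.193). Of 20 interferon-gamma response genes 4 were higher and none was lower, among them Cd274 (0.25) and Gbp2 (0.28). Genes of ribosomal proteins and of MHC class I had no member at an unadjusted p under 0.05 in either direction.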
